A study of Homo sapiens with 9 samples.

Results

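The replication-dependent histone genes were followed in H1975, an established human line of non-small cell lung cancer, after induction of a transcriptional repressor directed at the long noncoding RNA TRIDENT. They were taken as the protein-coding genes whose current symbol is H1-1 to H1-5 or carries the prefix H2AC, H2BC, H3C or H4C and a number. The rule found 68 genes among the 56823 into which reads were summed: 5 of class H1, 17 of H2A, 18 of H2B, 13 of H3 and 15 of H4. The rule sorts genes by symbol and uses no measured value.

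Every group carried dCas9-KRAB, a nuclease-dead Cas9 fused to a repressor domain, under a doxycycline-responsive promoter. All cells were kept under G418 and puromycin in serum free of tetracycline, and all received 4 ug/ml doxycycline for 72 h. The control had a non-targeting guide RNA (NT), and the others had TRIDENT gRNA1 or TRIDENT gRNA2, with 3 libraries in each of the 3 groups. No library came from cells without doxycycline, and nothing in the labels says whether the cells were a clone or a pool or whether replicates were separate cultures, so p-values measure the spread between these libraries.

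Replication-dependent histone genes supply the proteins that package newly copied DNA, and their mRNAs are made mainly in S phase. Core histones H2A, H2B, H3 and H4 form the nucleosome, and H1 is the linker histone that binds where DNA enters and leaves it. Most of these genes lack introns, and their mRNAs end in a conserved stem-loop in place of a poly(A) tail. The stem-loop is bound by SLBP, cut just downstream with the help of the U7 small nuclear ribonucleoprotein, and degraded when DNA synthesis stops. NPAT, a cyclin E-CDK2 substrate, gathers the transcription machinery at the histone clusters.

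The libraries were made from total RNA after removal of ribosomal RNA, per the labels, a preparation that does not select for poly(A) tails. The stem-loop is the feature that sets these mRNAs apart, so it is shown here in the 5 forms found in the quantified transcripts, each in the gene of that form with the lowest adjusted p for gRNA2 against control. The sequences are from GENCODE 29, read 5′ to 3′, with the stem-loop in capitals, up to 10 bases before it and 4 after it.
H2BC8: aaaactcaaaGGCTCTTTTCAGAGCCactc
H4C11: atcaataaaaGGCCCTTTTCAGGGCCaccc
H2BC4: taaccccaaaGGCTCTTTTAAGAGCCaccc
H3C6: taaatccaaaGGCTCTTCTCAGAGCCaacc
H2AC11: ccaaaccaacGGCTCTTTTCAGGGCCaccc
The form in H2BC8 was found in 16 genes of H2A, H2B and H3, that in H4C11 in 5 genes, all H4, and that in H2BC4 in 3 H2B genes and 1 H3 gene. The forms in H3C6 and H2AC11 were found in 1 gene each. In all, 27 of the 67 members with a quantified transcript had a transcript that holds the stem-loop, and 19 of them had one that runs over 100 bases past it. A transcript without it may still be cut short in the annotation, so its absence says nothing of the mRNA. The same pattern, searched on the sense strand, was present in 96 (0.0464%) of all 206694 annotated transcripts. Of those 96, 37 (38.5%) were transcripts of the members.

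Promoters are shown for the member with the lowest gRNA2 fold of class H1, for a member of H2B, H3 and H4 that was lower with gRNA2, and for H2BC26, the only member that was higher. They are RefSeq sequences of GRCh38.p14, 250 bases before to 50 after the annotated start. Capitals mark TATAAA (the TATA box), CCAAT, ATTTGCAT (the octamer of H2B promoters) and AAACACA (an element of H1 promoters), each on either strand.
H1-5 (chr6:27867539-27867838, minus strand): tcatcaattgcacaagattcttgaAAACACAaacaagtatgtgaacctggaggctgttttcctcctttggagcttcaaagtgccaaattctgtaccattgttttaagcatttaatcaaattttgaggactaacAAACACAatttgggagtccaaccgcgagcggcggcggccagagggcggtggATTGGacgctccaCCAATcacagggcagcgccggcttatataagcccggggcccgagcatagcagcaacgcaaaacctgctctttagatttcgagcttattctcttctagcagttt
H2BC10 (chr6:26272681-26272980, plus strand): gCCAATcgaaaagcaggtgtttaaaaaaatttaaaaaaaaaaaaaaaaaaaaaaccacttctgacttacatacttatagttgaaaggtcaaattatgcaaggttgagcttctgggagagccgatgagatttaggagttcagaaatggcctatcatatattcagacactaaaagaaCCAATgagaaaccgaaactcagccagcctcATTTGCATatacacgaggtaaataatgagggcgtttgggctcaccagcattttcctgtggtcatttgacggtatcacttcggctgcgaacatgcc
H3C2 (chr6:26032050-26032349, minus strand): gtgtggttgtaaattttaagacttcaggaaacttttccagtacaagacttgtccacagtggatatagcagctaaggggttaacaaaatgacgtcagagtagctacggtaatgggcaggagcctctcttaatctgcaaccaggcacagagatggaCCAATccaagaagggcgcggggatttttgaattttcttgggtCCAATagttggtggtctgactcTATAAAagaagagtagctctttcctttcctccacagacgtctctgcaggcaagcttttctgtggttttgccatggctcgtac
H4C11 (chr6:27823842-27824141, plus strand): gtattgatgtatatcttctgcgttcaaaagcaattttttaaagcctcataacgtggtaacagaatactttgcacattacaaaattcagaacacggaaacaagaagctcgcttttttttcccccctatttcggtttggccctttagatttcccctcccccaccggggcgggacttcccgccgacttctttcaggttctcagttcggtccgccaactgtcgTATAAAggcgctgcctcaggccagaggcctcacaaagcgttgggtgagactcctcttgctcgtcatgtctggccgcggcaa
H2BC26 (chr1:228457853-228458152, plus strand): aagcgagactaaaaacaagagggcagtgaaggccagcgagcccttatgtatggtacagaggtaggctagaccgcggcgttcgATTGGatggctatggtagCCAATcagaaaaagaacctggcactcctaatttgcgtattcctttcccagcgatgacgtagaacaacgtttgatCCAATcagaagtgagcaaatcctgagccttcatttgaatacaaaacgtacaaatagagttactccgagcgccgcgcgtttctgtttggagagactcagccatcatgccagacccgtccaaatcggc
RefSeq held 67 such windows for 63 of the 68 members. TATAAA was present in 67.2% of them against 11.5% of all 35116 promoter windows, and CCAAT in 85.1% against 34.6%. The classes differed in what they held. ATTTGCAT was present in 40.3% of the member windows and 1.77% of all, and it lay in 15 of the 20 H2B windows, 11 of the 16 H2A windows and 1 of the 13 H3 windows. AAACACA was found in all 5 H1 windows and in 5.64% of all promoters. CCAAT was in 3 of the 13 H4 windows, whereas GGTCC, a short sequence of H4 promoters that is left unmarked above, was in 12 of them and in 46.3% of all promoters. GGTCC and CCAAT share letters where they meet as GGTCCAAT, as in H3C2, and each was then counted.

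Read totals ran from 16918432 to 26466536 per library, of which 12433 to 23625 fell on the histone genes. Summed markers of epithelial cells (EPCAM, CDH1 and keratins) were at 2788 to 3225 CPM (reads of a gene relative to the TMM-adjusted library total) in the 9 libraries. Markers of blood cells, endothelium and fibroblasts summed to at most 17.7 CPM, with HBB and COL3A1 at 0 in every library. The gene matched to TRIDENT through a RefSeq synonym was at 2.58 ± 0.287 CPM under the non-targeting guide, 1.91 ± 0.163 under gRNA1 and 2.44 ± 0.132 under gRNA2 (SD, n = 3). The gRNA1 libraries (1.77, 2.09 and 1.87 CPM) lay below all controls (2.62, 2.28 and 2.85), at 0.745-fold. Those of gRNA2 (2.52, 2.29 and 2.52) overlapped the controls, at 0.945-fold. Neither difference passed the threshold (edgeR adjusted p = 0.128 and 0.81), so directions below belong to the libraries labelled gRNA1 and gRNA2. Replicate 3 of gRNA2 had the fewest reads and stood apart from the other 8 libraries on the second principal component, and calls that ended without it are named.

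Under gRNA2 the summed histone level was lower as a family and in every class, whereas under gRNA1 it was near that of the controls. The 67 quantified genes summed to 1027, 959 and 969 CPM in the controls, 996, 1009 and 1018 with gRNA1, and 788, 757 and 747 with gRNA2. All 3 gRNA2 libraries lay below all 6 others. The mean was 0.776 of the control mean with gRNA2 and 1.02 with gRNA1. As a share of all reads the histone genes took 0.0935% to 0.1% in the controls, 0.0994% to 0.101% with gRNA1 and 0.0735% to 0.0785% with gRNA2. In bulk RNA, fewer cells in S phase and less histone mRNA per cell cannot be told apart.

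By class, summed H1 fell from 228 ± 2.44 CPM in the controls to 172 ± 2.00 with gRNA2, and with gRNA1 it was 227 ± 1.56 (SD, n = 3 for each group here). H2A was at 182 ± 8.83 CPM in control libraries, 192 ± 6.64 under gRNA1 and 147 ± 6.92 under gRNA2. H2B, with the highest summed counts, was at 285 ± 11.7, 296 ± 3.92 and 222 ± 6.60 CPM. The plot of summed levels shows that no gRNA2 library reached a control library in any of these classes. H3 had the lowest sum and the largest relative drop, from 94.2 ± 9.36 CPM to 65.4 ± 5.56 with gRNA2, and was at 92.8 ± 1.58 with gRNA1. H4 was at 196 ± 10.8, 200 ± 1.07 and 158 ± 4.50 CPM. The ratio of gRNA2 to control was 0.694 for H3, 0.755 for H1, 0.779 for H2B and between 0.805 and 0.807 for H4 and H2A. These sums carry no test.

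**Figure D1:**
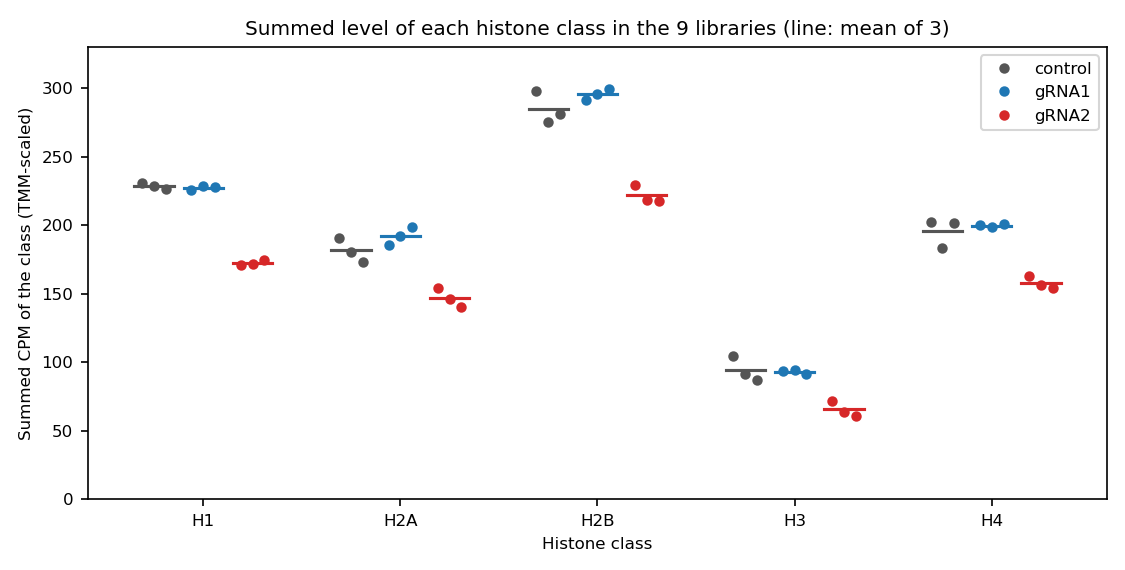
Summed TMM-scaled CPM of each histone class (y axis, linear from 0) in the 3 libraries of each group, with a line at the mean. The gRNA2 libraries lie below all control and gRNA1 libraries in each of the 5 classes, from 171 to 175 for H1 and from 60.8 to 71.6 for H3.

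Of the 68 members, 62 passed the filter on low counts and were tested. H2BC1 and H4C7 had 2 and 1 reads over all libraries, H2AC1, H2AC25 and H4C12 had 0, and H3C15 has a transcript identical to that of H3C14 and was not listed by itself. A change was called at a Benjamini-Hochberg adjusted p under 0.05 in edgeR's quasi-likelihood test over all 19658 genes tested. With gRNA2, 43 members fell and 1, H2BC26, rose, 71.0% of those tested, where 8.44% of all genes were called (4.75% lower and 3.69% higher than the control). In 52 members all 3 gRNA2 libraries lay below all 3 controls, against 13.7% of all genes. The median log2 change of the members was −0.47, beside 0.01 over all genes tested.

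The count of called members depended on single libraries more than the size of the change did. It was 22, all lower, without gRNA2 replicate 2 and 29, all lower, without control replicate 1. It was 35 without gRNA2 replicate 3 and between 33 and 43 without any other library, while the median stayed between −0.48 and −0.42. With an offset for transcript length it was 26, all lower. Seen library by library, the median member was 0.38, 0.41 and 0.44 below the mean of the controls on the log2 scale in gRNA2 replicates 1, 2 and 3, with 58 or 59 of 62 members below it in each. The 3 controls themselves lay between −0.03 and 0.07 and the gRNA1 libraries between 0.01 and 0.06.

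**Figure D2:**
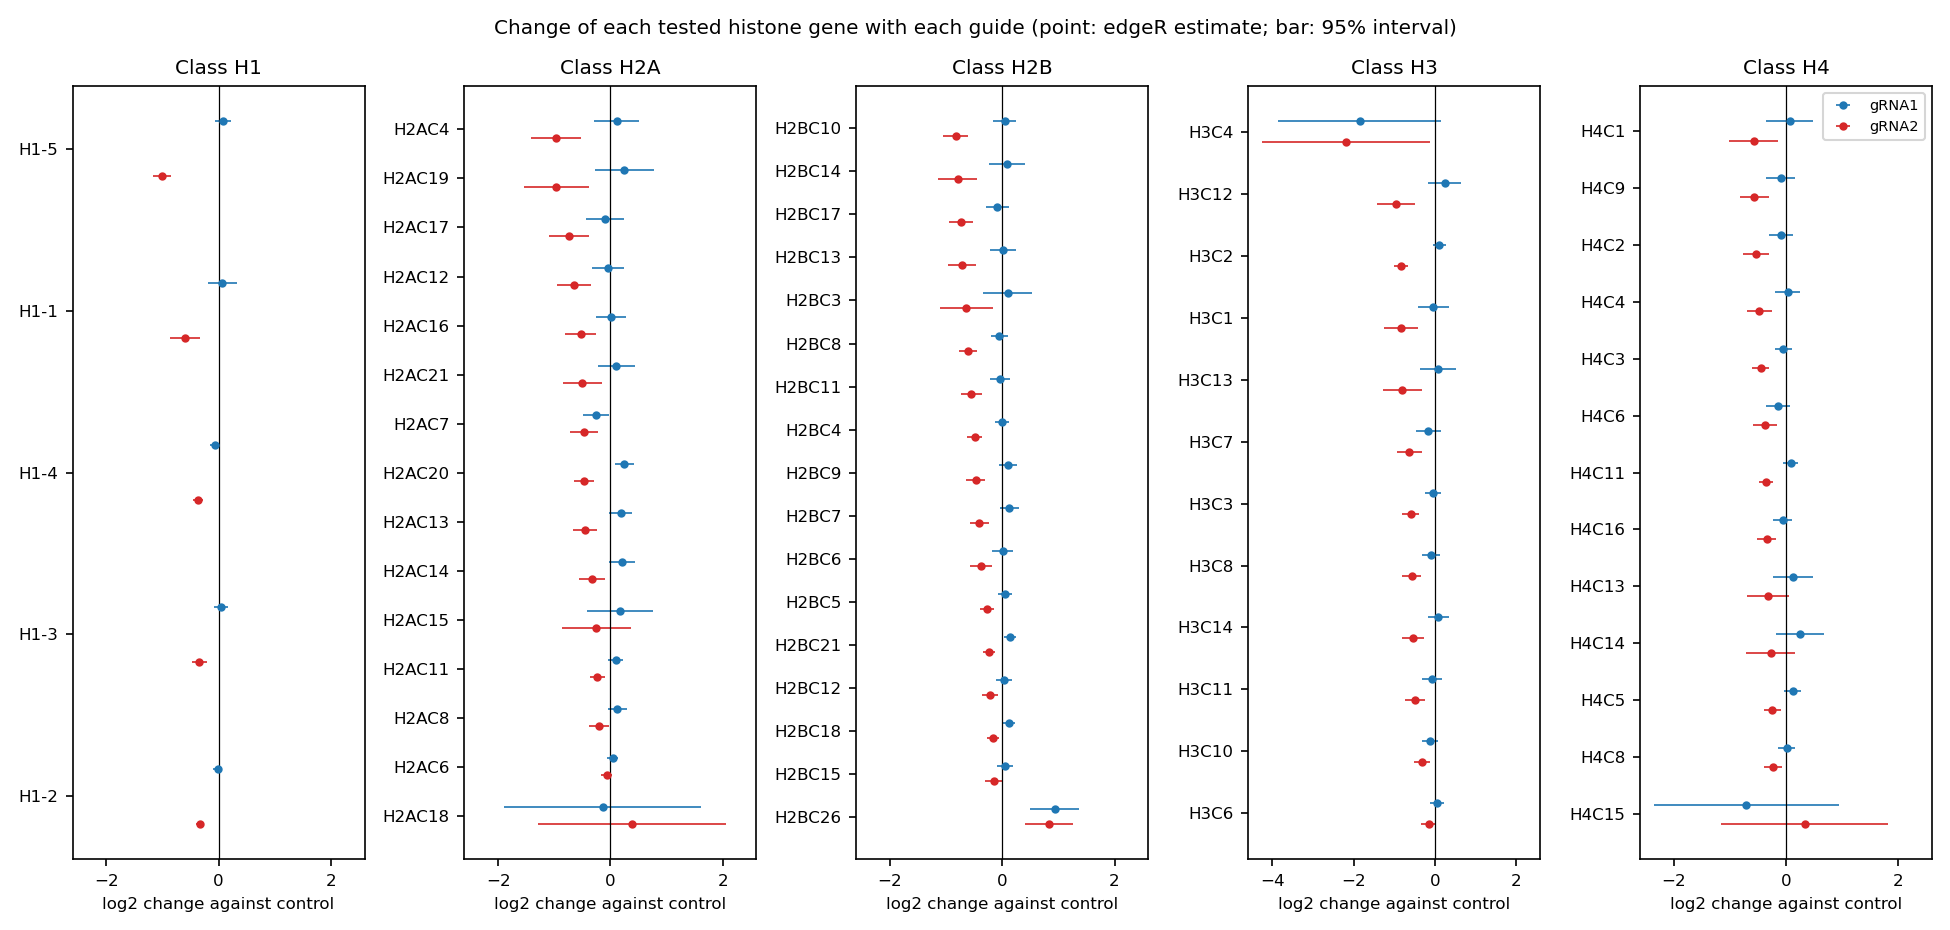
The log2 change of each of the 62 tested histone genes against the control (x axis, wider for H3), in one panel per class, with its 95% interval as a bar, for gRNA1 in blue and gRNA2 in red. The gRNA2 points lie left of 0 for 59 of 62 genes, and the widest bars belong to H3C4, H2AC18 and H4C15, which share most of their sequence with other genes.

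With gRNA1 the picture was flat. Only H2BC26 passed the threshold and it was higher, where 7.08% of all genes were called, 3.49% higher and 3.58% lower (with upper-quartile scaling the share of higher genes among all called rose from 49.4% to 60.0%). A further 4 members had an unadjusted p under 0.05, and the share of all genes at that p was not taken. The median log2 change was 0.04, with 39 members above 0 and 23 below. In 7 members all gRNA1 libraries lay above all controls, against 13.5% of all genes, and in 2 they lay below, against 14.6%.

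All 5 linker histone genes fell with gRNA2. H1-2 was the most abundant of them per unit length, with 54.8% of the class by TPM (a length-scaled transcript level) in the controls, followed by H1-4, H1-3, H1-5 and H1-1. H1-5 (chr6:27866849-27867529) had 23.4, 21.8 and 26.1 CPM in the controls, 25.1, 25.0 and 25.3 with gRNA1, and 11.8, 12.2 and 11.4 with gRNA2. Its gRNA2 libraries were the lowest by a wide gap, and those of gRNA1 lay within the range of the controls. The fold was 0.497 with gRNA2 (95% interval 0.446 to 0.554, adjusted p = 3.54e-06), the lowest of the class, and 1.06 with gRNA1 (adjusted p = 0.53).

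H1-2 had 110, 111 and 107 CPM in the controls, 109, 109 and 108 with gRNA1, and 85.2, 87.0 and 89.2 with gRNA2. Again the gRNA2 libraries alone were low, with no overlap with the controls, and the fold was 0.795 (0.753 to 0.84, adjusted p = 0.000112). H1-4 went from 61.3 ± 0.80 to 47.8 ± 0.338 CPM (0.78-fold, adjusted p = 0.000146) and H1-3 from 25.3 ± 1.63 to 19.9 ± 0.625 (0.789-fold, adjusted p = 0.00411). H1-1 was at 0.663-fold with gRNA2 (adjusted p = 0.0107). The drop of H1-5 was thus the largest among genes that otherwise lay between 0.66- and 0.80-fold. H1-2, H1-3, H1-4 and H1-5 were called with gRNA2 in all 18 alternative settings tried.

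Among H2A genes 9 of 15 tested fell with gRNA2, and the median log2 change was −0.46. H2AC4 had 2.03, 2.12 and 2.16 CPM in the controls, 2.12, 2.31 and 2.41 with gRNA1, and 1.36, 1.07 and 0.721 with gRNA2. The gRNA2 libraries were all below the controls, and the lowest was replicate 3. The fold was 0.513 (0.377 to 0.699, adjusted p = 0.0112), and the call ended without gRNA2 replicate 2 (adjusted p = 0.0518). H2AC6 behaved differently from it. Its 3 gRNA2 libraries, at 40.5, 43.0 and 40.2 CPM, overlapped the controls at 44.1, 43.7 and 42.1 and the gRNA1 libraries at 42.6, 44.9 and 45.8 (0.955-fold with gRNA2, 0.888 to 1.03, adjusted p = 0.441).

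H2AC20, with 50.6% of its 31-base words in other genes, was at 10.7 ± 0.129 CPM in the controls and 7.71 ± 0.424 with gRNA2 (0.725-fold, adjusted p = 0.00393). With gRNA1 it was at 12.7 ± 0.903 CPM, above all controls, and did not pass the threshold (1.19-fold, adjusted p = 0.072), though it did when protein-coding genes alone were tested. H2AC12 was at 0.638-fold and H2AC13 at 0.729-fold with gRNA2 (adjusted p = 0.0108 and 0.012). Of the 31-base words of H2AC13, 63.8% lie in other genes. H2AC11 was at 0.849-fold (adjusted p = 0.0343). The H2AC12 call ended without gRNA2 replicate 2, the H2AC13 call without that library or control replicate 2 or with a transcript length offset, and the H2AC11 call in 8 of the 18 settings (adjusted p 0.0546 to 0.136), among them without gRNA2 replicate 3 (0.116).

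Among H2B genes 12 of 17 fell and 1 rose with gRNA2, with a median log2 change of −0.47. H2BC10 had 7.86, 6.72 and 6.85 CPM in the controls, 7.15, 7.56 and 7.34 with gRNA1, and 4.12, 4.01 and 3.84 with gRNA2. The gRNA2 libraries were tightly grouped below all others (0.563-fold, 0.482 to 0.656, adjusted p = 0.000274). H2BC17 went from 10.7 ± 0.960 to 6.38 ± 0.852 CPM (0.601-fold, adjusted p = 0.000724), H2BC8 from 25.3 ± 2.11 to 16.5 ± 0.750 (0.656-fold, adjusted p = 0.000223) and H2BC4 from 25.5 ± 1.39 to 18.1 ± 0.440 (0.71-fold, adjusted p = 0.000282). All 4 were called in all 18 settings.

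The most abundant H2B genes by CPM moved less. H2BC5 had 39.5 ± 1.68 CPM in control libraries, 40.8 ± 2.49 under gRNA1 and 32.7 ± 1.46 under gRNA2 (0.83-fold, adjusted p = 0.0112), and the call ended without control replicate 1 or gRNA2 replicate 2. H2BC18 had 34.3, 33.8 and 32.3 CPM in the controls, 36.9, 35.6 and 36.7 with gRNA1, and 29.7, 30.7 and 29.2 with gRNA2. The 3 groups did not overlap, with gRNA1 highest and gRNA2 lowest, yet neither guide passed the threshold against the control (1.09-fold, adjusted p = 0.158, and 0.894-fold, adjusted p = 0.0598). The guides differed from each other (0.822-fold, gRNA2 against gRNA1, adjusted p = 0.00332).

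H2BC26 (chr1:228458107-228460470), apart from the main clusters, was the exception in both comparisons. It had 1.02, 1.02 and 1.01 CPM in the controls, 2.12, 1.75 and 1.97 with gRNA1, and 2.14, 1.68 and 1.56 with gRNA2. Both guides lay above the controls and overlapped each other. The fold was 1.91 with gRNA1 (1.42 to 2.57, adjusted p = 0.0119) and 1.78 with gRNA2 (1.32 to 2.40, adjusted p = 0.0206), against shared controls. DESeq2 gave no adjusted p for the latter. The gene was rare, with 0.0875% of the H2B class by TPM in the controls. The gRNA1 call ended without gRNA1 replicate 1 and with DESeq2 (adjusted p 0.0525 to 0.0532), and the gRNA2 call without any 1 of the controls, without gRNA2 replicate 1 or 2, or with a transcript length offset (0.0509 to 0.0681). Its promoter window, printed above, holds neither TATAAA nor ATTTGCAT, and its transcript runs past the stem-loop by 1917 bases. None of these traits is particular to it. TATAAA was in 14 and ATTTGCAT in 15 of the 20 H2B windows, and the printed window of H2BC10, which fell, also lacks TATAAA. The transcript of H2BC8, which fell too, runs 1059 bases past the stem-loop.

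Among H3 genes 10 of 12 fell with gRNA2, and the median log2 change of −0.61 was the lowest of the classes. H3C2 (chr6:26031650-26032060) had 10.9, 10.5 and 10.2 CPM in the controls, 11.1, 11.7 and 11.4 with gRNA1, and 6.10, 5.88 and 5.65 with gRNA2. The gRNA1 libraries lay above all controls and the gRNA2 libraries far below, at 1.08-fold (adjusted p = 0.424) and 0.559-fold (0.496 to 0.63, adjusted p = 3.12e-05). H3C3 and H3C8 were at 0.664- and 0.673-fold with gRNA2 (adjusted p = 0.00187 and 0.00545). H3C12 went from 1.71 ± 0.0865 to 0.903 ± 0.260 CPM (0.514-fold, adjusted p = 0.0146).

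H3C14, which stands for itself and the identical H3C15, was at 0.69-fold with gRNA2 (adjusted p = 0.021). The H3C12 call ended without control replicate 2 or gRNA2 replicate 2 or with a transcript length offset, and the H3C14 call without control replicate 1, gRNA2 replicate 2 or gRNA2 replicate 3 (adjusted p = 0.0696 without the last). H3C6 was the H3 gene that moved least. It had 16.4, 14.5 and 13.8 CPM in the controls, 15.7, 16.5 and 14.3 with gRNA1, and 14.3, 13.2 and 12.7 with gRNA2 (0.904-fold, 0.798 to 1.03, adjusted p = 0.327), with overlap of gRNA2 and control. The other H3 gene that was not called, H3C4, shares all its 31-base words with an overlapping readthrough gene and was at 0 in 4 of the 6 guide libraries.

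Among H4 genes 7 of 13 fell with gRNA2, with a median log2 change of −0.36. H4C11, the most abundant member of the class per unit length, had 41.0, 37.5 and 40.1 CPM in the controls, 42.5, 40.3 and 42.4 with gRNA1, and 33.2, 30.8 and 28.1 with gRNA2. The gRNA2 libraries were the lowest, replicate 3 lowest of all (0.782-fold, 0.713 to 0.857, adjusted p = 0.00311). H4C11 shares 82.2% of its 31-base words with H4C12, which was assigned 0 reads, so the value cannot be told apart from a sum over both. H4C3 went from 17.4 ± 0.878 to 12.7 ± 0.263 CPM (0.731-fold, adjusted p = 0.00175), H4C2 from 9.80 ± 0.931 to 6.81 ± 0.615 (0.692-fold, adjusted p = 0.00733) and H4C9 from 6.96 ± 0.100 to 4.62 ± 0.885 (0.675-fold, adjusted p = 0.011).

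H4C5 had 38.8, 31.9 and 34.3 CPM in the controls, 38.1, 35.7 and 40.1 with gRNA1, and 30.7, 28.2 and 29.4 with gRNA2. The gRNA2 libraries lay below all others, but the call missed the threshold by a small margin (0.845-fold, 0.76 to 0.94, adjusted p = 0.0509) and was made in 4 of the alternative settings that keep all 9 libraries. H4C16, alone on chromosome 12, was at 0.788-fold with gRNA2 (adjusted p = 0.0184), a call that ended without control replicate 1 or 3, without gRNA2 replicate 2 or 3 (adjusted p = 0.0608 without replicate 3), or with a transcript length offset. The H4C2 call ended with that offset.

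**Figure D3:**
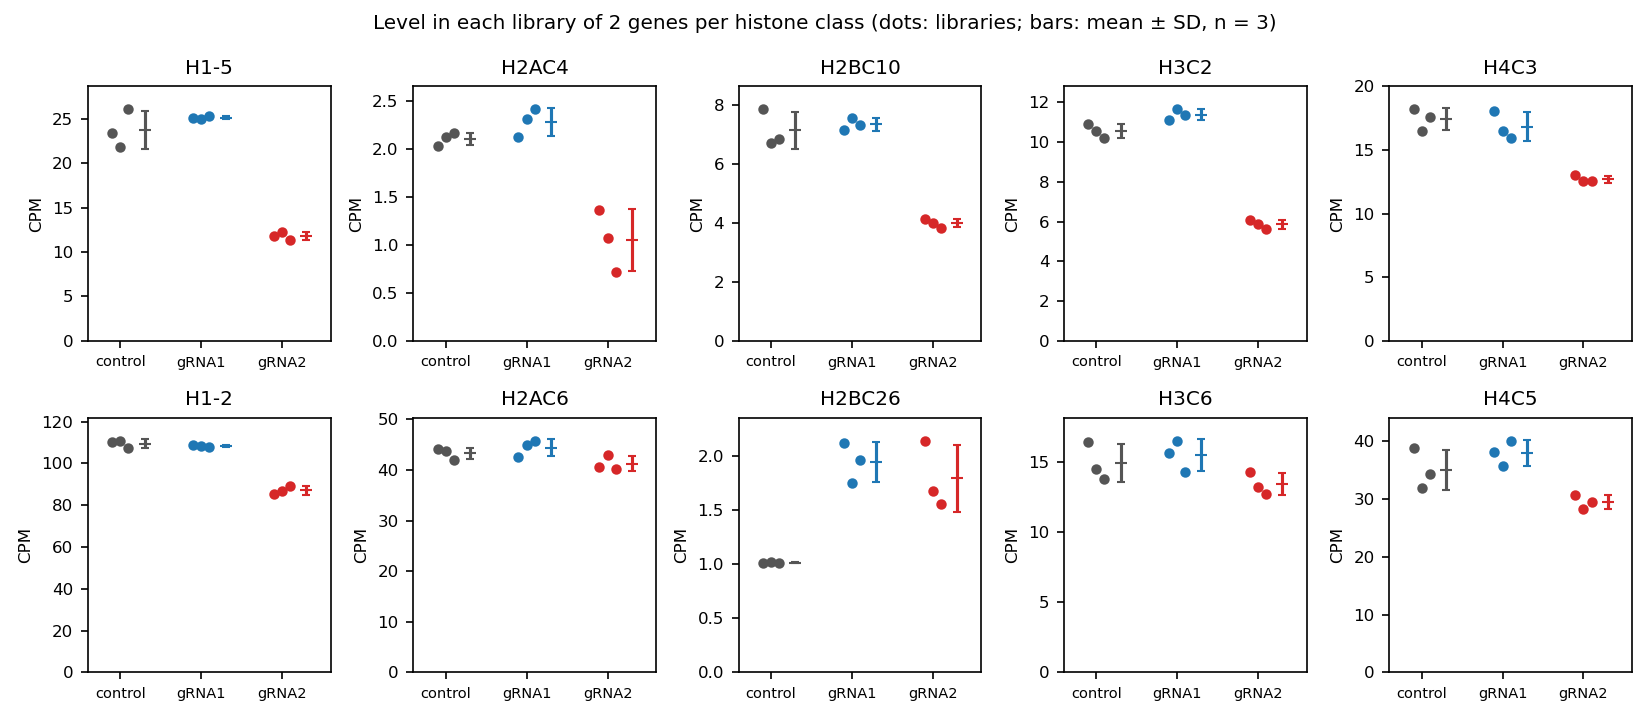
CPM (y axis, linear from 0) in the 3 libraries of each group for 2 genes of each class, with mean ± SD beside the dots. The upper row shows genes that were lower with gRNA2, such as H1-5 at 11.4 to 12.2, and the lower row genes that moved less or, for H2BC26, rose.

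By position, the drop with gRNA2 was spread over the clusters of chromosome 6 and was more mixed on chromosome 1. In the largest cluster (chr6:26017085-26285638, GENCODE 29 coordinates on GRCh38) 22 of 30 tested genes fell (median log2 change −0.48). At chr6:27125897-27147515 4 of 5 fell (−0.55), and at chr6:27807444-27893843 11 of 15 (−0.48). At chr1:149782689-149887916 5 of 10 fell (−0.37). Copies that are hard to separate lie in this cluster and also on chromosome 6, as with H2AC14, with 86.0% of its 31-base words in other genes. Genes that moved little and much lay in one cluster, as with H2AC6 and H3C2 on chromosome 6.

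Nearly identical copies limit what can be said of single genes, as with the pairs on chromosome 1 given here. H2AC18 was assigned 192, 0 and 361 reads in the 3 controls while H2AC19 was assigned 377, 658 and 253. The split changed from library to library in an erratic way. Summed, an alternative added after the data were seen, they were at 28.5 ± 1.83 CPM in control libraries, 31.3 ± 1.59 under gRNA1 and 21.4 ± 1.74 under gRNA2 (0.757-fold with gRNA2, adjusted p = 0.00359). H4C14 and H4C15, summed in the same way, were at 33.6 ± 1.47, 35.0 ± 1.53 and 31.3 ± 0.995 CPM (0.935-fold with gRNA2, 0.861 to 1.01, adjusted p = 0.309). The first pair therefore fell as a sum and the second did not pass the threshold. Of the 47 tested genes with at most 50% of their 31-base words in other genes, 35 fell with gRNA2, and of the 15 with more, 8 fell.

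The direct comparison of the guides gave the same number of lower genes. Of 62 members, 43 were lower with gRNA2 than with gRNA1 and 0 were higher, where 6.22% of all genes were called (3.1% lower and 3.12% higher). The 55 members with an unadjusted p under 0.05 were all lower, and the share of all genes at that p was not taken. DESeq2 called 35 of 50 members, also all lower, beside 1172 of 12173 genes (550 higher and 622 lower). In 55 members all gRNA2 libraries lay below all gRNA1 libraries, against 12.0% of all genes, and the median log2 change was −0.47. Of these 43 genes, 37 were also called lower against the control, in comparisons that share the gRNA2 libraries and are not independent. The count was 30 without gRNA2 replicate 2, 36 without gRNA2 replicate 3 and 31 without gRNA1 replicate 2.

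By class, all 5 H1 genes, 11 of 15 H2A genes, 14 of 17 H2B genes, 7 of 12 H3 genes and 6 of 13 H4 genes were lower with gRNA2 than with gRNA1. H1-5 was at 0.47-fold (adjusted p = 9.22e-07), H3C12 at 0.432-fold (0.00348) and H2AC20 at 0.61-fold (0.000152). H4C5, which missed the threshold against the control, was at 0.777-fold against gRNA1 (adjusted p = 0.00727). H4C9 was at 0.722-fold (adjusted p = 0.0358), a call lost in 11 of the 18 settings (0.0501 to 0.0968), among them without gRNA2 replicate 3 (0.0742).

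The genes that moved least with gRNA2 tended to have long annotated transcripts, a split chosen after the values were seen and given as a description. Of 42 tested genes whose longest transcript in the tables has 1000 bases or less, 32 were called lower with gRNA2, with a median log2 change of −0.53. Of the 20 with a longer one, 11 were called lower and 1 higher, with a median of −0.26. The same split with gRNA1 gave medians of 0.04 and 0.06.

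**Figure D4:**
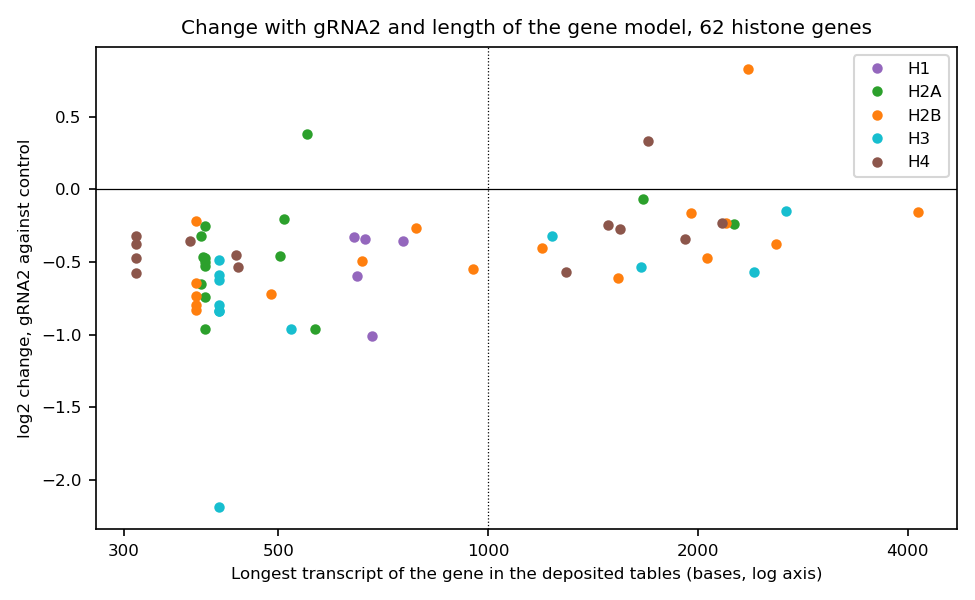
Log2 change with gRNA2 against the control (y axis) by the length in bases of the longest quantified transcript of the gene (x axis, log scale), 1 point per tested gene, coloured by class. Genes left of the dotted line at 1000 bases have a median of −0.53 and those to its right of −0.26.

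Within single genes, transcripts with 1 exon and spliced transcripts could be set side by side. Some histone genes are known to give spliced or extended polyadenylated transcripts beside the usual form. The number of exons does not sort the transcripts by how they end. Those with 1 exon of H2BC18 and H2BC15 run 1479 and 377 bases past the stem-loop. The spliced transcript of H3C6 also holds a stem-loop. In 9 genes with at most 50% of their 31-base words in other genes, both kinds averaged at least 1 CPM in the controls. The 50% was taken over all transcripts of a gene, not for each kind. In 8 of the 9 the transcripts with 1 exon were lower in all gRNA2 libraries than in all controls, and the spliced ones were so in 1. Among the 51444 single transcripts of at least 1 CPM in the controls, whatever their gene, this held for 9.03%, a share that the spliced count of 1 in 9 lies near. The ratio of gRNA2 to control ran from 0.609 to 0.926 for the transcripts with 1 exon (median 0.683) and from 0.390 to 1.19 for the spliced (median 0.924). With gRNA1 the ratios ran from 0.923 to 1.11 (median 0.992) and from 0.713 to 1.28 (median 1.04). These are Salmon's divisions of reads among overlapping transcripts and were not tested.

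H3C6, uncalled as a whole gene, was one of these. Its transcript of 462 bases, which ends 5 bases after the stem-loop printed above, had 5.24, 3.68 and 3.63 CPM in the controls, 5.20, 3.61 and 3.65 with gRNA1, and 2.46, 2.77 and 2.50 with gRNA2. Its spliced transcript of 2679 bases had 11.2, 10.8 and 10.2 CPM in the controls, 10.5, 12.9 and 10.6 with gRNA1, and 11.8, 10.4 and 10.2 with gRNA2. The short form was lower in every gRNA2 library, with a ratio of 0.616, and the long one overlapped the controls, with a ratio of 1.01.

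H2BC5 and H4C16 showed the same arrangement. The 496-base transcript of H2BC5 had 16.7, 15.4 and 14.6 CPM in the controls and 12.9, 10.2 and 8.77 with gRNA2 (ratio 0.683). Its spliced transcript had 24.4, 24.1 and 23.2 CPM in the controls and 21.5, 21.4 and 23.4 with gRNA2 (ratio 0.924), which overlap. In H4C16 the ratios were 0.672 for the transcript with 1 exon and 0.936 for the spliced ones. With gRNA1 they were 1.09 and 0.790, and the spliced ones lay below all controls in every gRNA1 library. With gRNA2, H2BC18 went the other way, at 0.926 for its 1954-base transcript with 1 exon and 0.390 for its spliced ones. Those spliced ones averaged 2.02 CPM in the controls, and the groups overlapped (2.03, 2.85 and 1.17 against 1.26, 0.595 and 0.510 with gRNA2). The most abundant of them had 73.5% of its 31-base words in other genes.

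**Figure D5:**
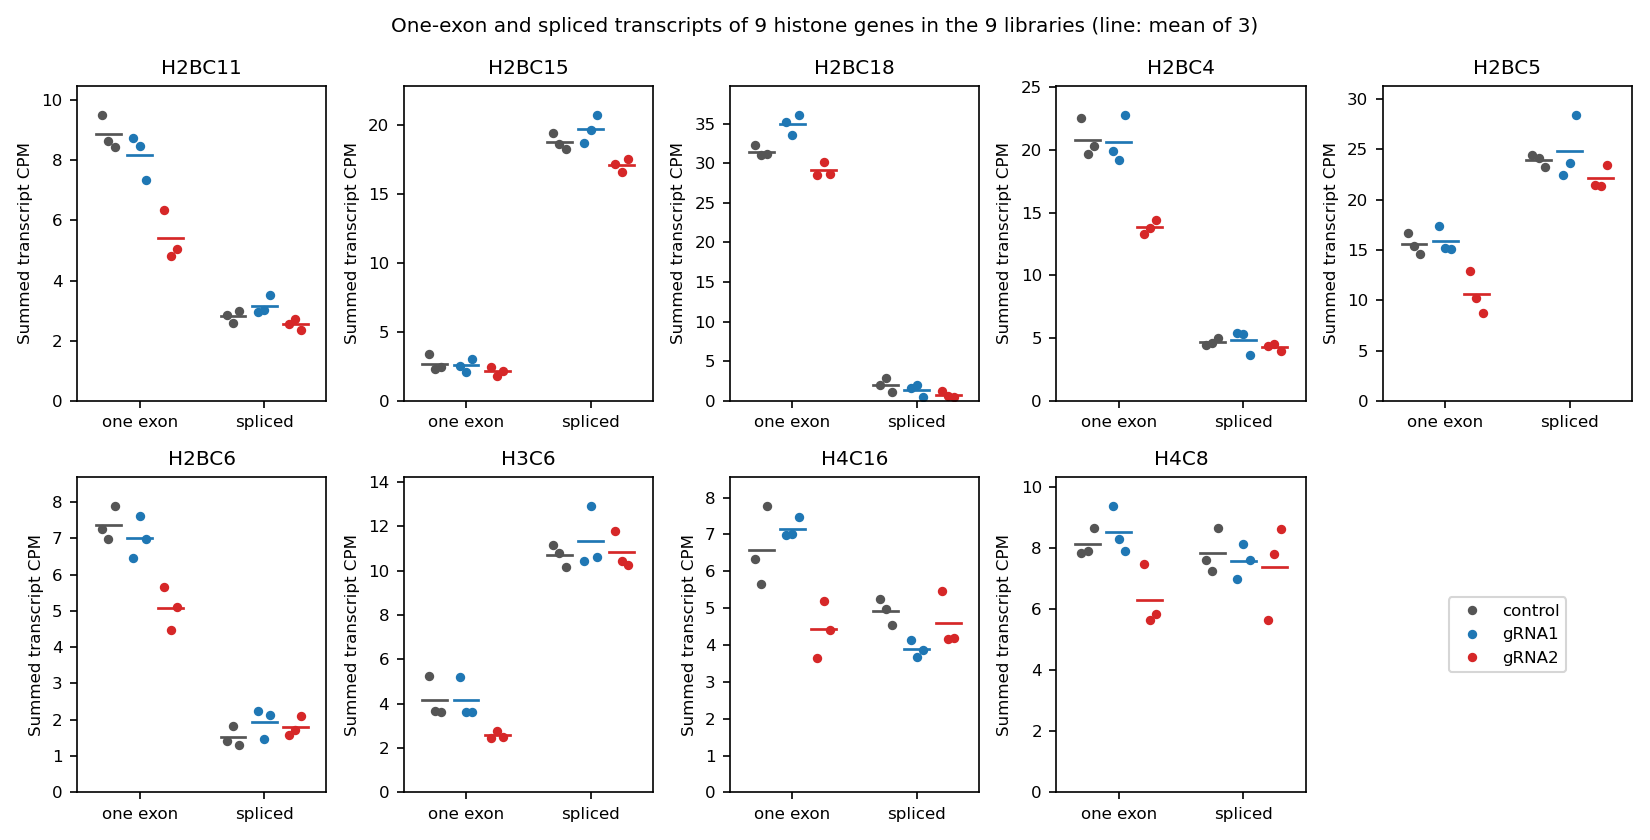
Summed CPM (y axis, linear from 0, a scale of its own in each panel) of the transcripts with 1 exon and of the spliced transcripts of 9 histone genes, in the 3 libraries of each group with a line at the mean. In 8 of 9 genes the gRNA2 dots for 1 exon lie below all control dots, and for the spliced transcripts this holds in 1, H2BC15.

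Genes that make and end histone mRNA were little changed beside the histone genes. Of 26 such genes tested, 2 fell with gRNA2 and 0 rose (median log2 change −0.03), where 4.75% of all genes were called lower. NPAT was at 66.5 ± 3.06 CPM in control libraries, 65.1 ± 3.66 under gRNA1 and 66.6 ± 4.40 under gRNA2, and CASP8AP2, its partner at histone loci, at 47.6 ± 2.33, 46.4 ± 3.48 and 46.4 ± 3.65. SLBP had 48.1, 50.3 and 53.2 CPM in the controls and 45.2, 46.3 and 46.5 with gRNA2, below all controls and short of the threshold (0.909-fold, adjusted p = 0.0943). The 2 that fell were SNRPD3, a core Sm protein (0.832-fold, adjusted p = 0.0095), and CPSF3, the nuclease that cuts histone pre-mRNA (0.896-fold, adjusted p = 0.0217). The CPSF3 call ended in 6 settings, among them without gRNA2 replicate 3 (adjusted p = 0.0681), and the SNRPD3 call without gRNA2 replicate 2.

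Replacement histones are made outside S phase as well and mostly from polyadenylated mRNA. With gRNA2, where 4.75% of all genes were called lower, 3 of 10 replacement histone genes were lower (median −0.11). They were H2AX at 0.72-fold, whose mRNA also has a stem-loop form, H2AZ1 at 0.817-fold and H2AZ2 at 0.882-fold (adjusted p = 0.0122, 0.00937 and 0.0185). H2AJ was at 0.902-fold (adjusted p = 0.266). All 3 calls ended without gRNA2 replicate 2, those of H2AZ1 and H2AZ2 also without control replicate 3 or with a transcript length offset, and that of H2AZ2 also without control replicate 2. Of 24 histone chaperones and import factors 8 fell with gRNA2, among them HJURP, the chaperone of centromeric H3 (0.826-fold, adjusted p = 0.008), and SSRP1, a subunit of FACT (0.885-fold, adjusted p = 0.0121). The HJURP call ended without gRNA2 replicate 2, and the SSRP1 call in 4 settings.

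Genes of the cell cycle were lower in the same libraries. Of 39 genes of S phase and DNA replication 20 fell with gRNA2 (median log2 change −0.21), with 0 higher. Of 30 genes of G2 and mitosis 27 fell (−0.32), also with 0 higher. Over all genes 4.75% were called lower and 3.69% higher with gRNA2. PCNA, the replication clamp, was at 46.1 ± 3.52 CPM in control libraries, 45.1 ± 0.794 under gRNA1 and 35.0 ± 1.05 under gRNA2 (0.759-fold, adjusted p = 0.000774). RRM2, a subunit of ribonucleotide reductase, was at 0.811-fold (adjusted p = 0.000886). CCNB1, the mitotic cyclin, was at 0.678-fold (adjusted p = 4.89e-06) and MKI67, a proliferation marker, at 0.731-fold (1.39e-05). With gRNA1, 2 of the 39 and 0 of the 30 were lower and 0 were higher, where 3.58% of all genes were called lower. Their part in the histone result was not tested. With a transcript length offset the RRM2 call ended.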

How the data were processed

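RNA from 9 libraries of H1975 in 3 labelled groups was sequenced. The authors used Salmon 1.4.0 and the build hg38, per the submitters' processing notes. The transcript set and strand setting are not given in the sources used here, so reads of overlapping antisense genes cannot be told apart. The deposited tables give an estimated count and a TPM value per transcript, per the file headers. Of 211939 transcripts, 95.7% matched GENCODE 29. Estimated counts were summed to genes and rounded, and TPM served only for levels between genes. Of the members, 64 were matched by gene ID and 4 by an older name.

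In edgeR 4.0.16 (R 4.3.3), filterByExpr left 19658 genes and TMM scaled the libraries. Two-sided quasi-likelihood F tests were drawn from one model of the 9 libraries. A gene was called when its Benjamini-Hochberg adjusted p, taken across the 19658 genes, was under 0.05. The biological coefficient of variation was 0.051. Fold intervals are 95%, and CPM use TMM-scaled library sizes. On simulated counts of 19658 genes for gRNA2 against control, the test called 83% of the genes changed 1.5-fold and 100% of those changed 2-fold. The changed genes were drawn only from those with more reads, so these shares do not cover rare members or smaller changes. Replicates differed beyond counting noise.

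The histone family, although its rule uses symbols alone, and the companion lists were chosen with earlier results of these data known. Named genes were, per class, the 4 with the lowest adjusted p with gRNA2 and the 2 with the highest mean CPM, any called with gRNA1 or called higher with gRNA2, those outside the main clusters, and up to 4 per companion list with SLBP, NPAT, CASP8AP2 and H2AX. A gene that this rule names is not reported here. H1-1, H3C4 and the copies on chromosome 1 were picked with their values in view. Other settings tried were DESeq2 1.42.0, RLE and upper-quartile scaling, no filter, a replicate block, only the 2 groups compared, a transcript length offset, protein-coding genes alone and leaving out each library (17 settings), with the sum of near-identical copies added later.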

Additional observations from a re-analysis of the deposited data

Results flagged for a closer look

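The change of the histone genes differed between the guides by a direct test: 43 of 62 members were lower with gRNA2 than with gRNA1 at an adjusted p under 0.05 in edgeR. Over all genes tested 6.22% were called, 3.1% lower and 3.12% higher. The genes H1-5 and H3C2 were named for a low adjusted p with gRNA2 against the control. H1-5 had 25.1 ± 0.169 CPM with gRNA1 and 11.8 ± 0.433 with gRNA2, and H3C2 had 11.4 ± 0.284 and 5.88 ± 0.229 (SD, n = 3).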

How the results depend on the processing

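No called histone or companion gene named here turned to the other direction under any of the 18 other settings. With a transcript length offset, called genes went from 1391 to 538 with gRNA1, from 1659 to 434 with gRNA2 and from 1222 to 446 between the guides, and called histone genes with gRNA2 from 44 to 26. Leaving out each library gave 654 to 1701, 671 to 1817 and 575 to 1215 called genes and, with gRNA2, 22 to 43 called histone genes. Called histone genes with gRNA1 went from 1 to 5 with no filter on low counts (3 higher, 2 lower), 2 with protein-coding genes alone and 0 with DESeq2, beside 5 at an unadjusted edgeR p under 0.05. Leaving out gRNA1 replicate 1, the 1 called gene was H3C4, lower. The causes were not tested. With libraries left out, 73 single-gene calls were lost and 4 gained; with the other settings 31 were lost and 11 gained, and DESeq2 gave no adjusted p for 6 results.

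Same-numbered libraries correlated between −0.05 and 0.07 in their deviations from the group means, and other pairs across groups between −0.07 and 0.05. The labels do not say whether same-numbered libraries share a culture or batch, and these values do not settle it. With a replicate block 1264, 1582 and 1144 genes and 1, 44 and 41 histone genes were called. Few reads limit H2BC26, H3C4 and other members near 1 CPM. The median effective length of the members ran from 265 to 303 bases over the libraries, and its part in the results was not tested.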
